A study of Mus musculus with 16 samples.

Results

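The miR-10, miR-99 and miR-100 family was followed across whole lungs of mice with or without ovalbumin (OVA) induced allergic airways disease. Its members were chosen by name, as every mouse row of the array whose name was miR-10a, miR-10b, miR-99a, miR-99b or miR-100 with either arm, which gave 8 of the 611 mouse miRNAs on the array. These were the 5p arms of all 5 precursors and the 3p arms of miR-10a, miR-10b and miR-99b. The animals were BALB/c mice of 8 to 12 weeks, and all of them received 1 mg of the aluminium adjuvant Alhydrogel by intraperitoneal injection on day 0. PBS/PBS lungs (2 arrays) came from mice that had adjuvant without OVA and were challenged intranasally with PBS, and PBS/OVA lungs (4 arrays) from mice that had adjuvant without OVA and were challenged with 10 μg OVA on each of days 12 to 15. OVA/OVA mice (6 arrays) received 50 μg OVA with the adjuvant and the same OVA challenges, and OVA/OVA DEX mice (4 arrays) additionally received the glucocorticoid dexamethasone (DEX) at 3 mg/kg intraperitoneally from day 11 on every second day, while the other groups are labelled PBS for treatment. The challenge of the PBS/PBS group follows the labels, since the study's methods give OVA as the challenge of all mice. Lungs were taken on day 16, which was 24 hours after the final challenge. The tissue was whole lung, so fewer cells of a type and less of a miRNA per cell cannot be told apart.

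MiRNAs are short RNAs that guide Argonaute proteins to messenger RNAs, mainly through the seed, the bases near their 5′ end. MiR-10a and miR-10b are encoded within the Hox gene clusters and are known as regulators of Hox genes, and miR-10a is also known from regulatory T cells and from endothelium. MiR-99a, miR-99b and miR-100 are encoded beside let-7 and miR-125 genes and are known to repress Mtor and Igf1r, which drive cell growth. Each precursor gives a 5p and a 3p product, and for these miRNAs the 5p product is the usual guide.

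The mature 5p sequences are shown because they define the 2 seed groups by which the results are arranged, and because near-identical sequences are read by separate probes. They are given 5′ to 3′ from RefSeq (GRCm38.p6), with the seed (bases 2 to 8) in capitals.
miR-10a-5p: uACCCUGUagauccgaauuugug
miR-10b-5p: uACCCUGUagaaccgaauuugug
miR-99a-5p: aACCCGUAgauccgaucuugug
miR-99b-5p: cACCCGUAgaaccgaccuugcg
miR-100-5p: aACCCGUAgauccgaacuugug
The 3p arms on the array are shown because 1 of them was tested against its 5p partner.
miR-10a-3p: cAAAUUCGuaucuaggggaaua
miR-10b-3p: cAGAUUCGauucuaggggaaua
miR-99b-3p: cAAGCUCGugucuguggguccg

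MiR-10a-5p and miR-10b-5p shared the seed ACCCUGU and differed at 1 of 23 positions (U12A, counted from the 5′ end). MiR-99a-5p, miR-99b-5p and miR-100-5p shared the seed ACCCGUA. Of these, miR-99a-5p differed from miR-100-5p at 1 of 22 positions (A16U), and miR-99b-5p differed from miR-100-5p at 4 positions (A1C, U11A, A16C and U21C). When the U at position 6 of miR-10a-5p was left out, 2 substitutions to miR-100-5p were left, so the seed groups differ by a shifted base. Among the 476 array miRNAs with a RefSeq sequence, these members were the only ones with the seed ACCCUGU (2 miRNAs) or ACCCGUA (3 miRNAs). The 3p arms of miR-10a and miR-10b had different seeds and differed at 3 positions (A3G, U9A and A10U). How far a probe for one member also binds a neighbour with 1 changed base was not tested.

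The genes lie on 5 chromosomes of GRCm38.p6, all on the forward strand. Distances are from the end of the precursor gene. MiR-10a-5p is at chr11:96317186-96317208, inside the span of Hoxb3, with Hoxb4 992 bases from Mir10a, and miR-10b-5p is at chr2:74726074-74726096, inside the spans of Hoxd3 and Hoxd4. MiR-99a-5p is at chr16:77598940-77598961, where no other gene overlaps, with Mirlet7c-1 656 bases from Mir99a. MiR-99b-5p is at chr17:17830194-17830215 inside the protein-coding gene Spaca6, with Mirlet7e 94 bases and Mir125a 554 bases from Mir99b. MiR-100-5p is at chr9:41531437-41531458 inside the long non-coding RNA gene Mir100hg, with Mirlet7a-2 5.2 kb and Mir125b-1 50.4 kb from Mir100.

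All 5p members were detected on all 16 arrays. MiR-10a-3p was detected on 12 arrays, miR-99b-3p on 4 and miR-10b-3p on 0. A miRNA was tested where 1 group or more had it detected on all of its arrays, which held for 266 miRNAs and for 6 members, all the 5p arms and miR-10a-3p. Signals are background-subtracted spot signals, averaged per probe, summed per miRNA, scaled to the 75th percentile of each array and given as log2. They are not comparable between miRNAs, because probes differ in brightness. A difference is said to pass at an adjusted p under 0.05 from limma over all 266 miRNAs.

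Array brightness before scaling differed between and within groups. The 75th percentiles of the PBS/PBS arrays were 2609 and 3169, those of the PBS/OVA arrays lay between 1700 and 2253, and those of the OVA/OVA DEX arrays between 1408 and 1915. In OVA/OVA 4 arrays were dimmer than all others (814 to 1346), and the other 2 (2300 and 2375) were brighter than every PBS/OVA and OVA/OVA DEX array. From 224 to 301 miRNAs were detected per array. Each group except PBS/PBS lay on both slides, which were scanned at separate times, and both PBS/PBS arrays lay on slide 1. Endothelial and mesenchymal marker miRNAs (2 of 2 and 3 of 3) were detected on every array, as were 5 of 6 epithelial markers.

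The first comparison set sensitised and challenged lungs against lungs that were challenged without sensitisation, and 4 of the 5 members of the 5p arm passed, all lower in OVA/OVA. They were miR-10b-5p, miR-99a-5p, miR-99b-5p and miR-100-5p, and miR-10a-5p and miR-10a-3p did not pass. This was 4 of the 6 members tested, where 16.9% of all miRNAs tested passed in that direction and 31.6% in either. These calls depended on the scaling and the background treatment. Without scaling, or with control spots or the percentile of all miRNAs as the scale, 0 members passed, and likewise with normexp background correction. In that order miR-100-5p had limma adjusted p of 0.131, 0.101, 0.0612 and 0.292. The share of all miRNAs that passed under these settings is not given, so the loss cannot be called particular to the members. The median difference was −0.25 on the log2 scale over the 5p members and −0.04 over all miRNAs tested. No member passed with the 2-fold change that the study required (5.26% of all miRNAs tested did), and the 5p differences were all smaller than that.

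MiR-100-5p, of the miR-99 seed group, had the smallest standard error of the members tested. Its log2 signal was 8.60 in both PBS/PBS arrays and 8.62, 8.58, 8.68 and 8.54 in the PBS/OVA arrays. In OVA/OVA it ran from 8.23 to 8.41 with a median of 8.30, and in OVA/OVA DEX it was 8.62, 8.59, 8.47 and 8.56. Every OVA/OVA array lay below every array of the other 3 groups. The fall of miR-100-5p against PBS/OVA was 1.24-fold, a log2 difference of −0.31 (SE 0.053) with a limma adjusted p of 0.000802. Its 2 probes moved alike, with differences of −0.41 and −0.29, and on each probe the OVA/OVA arrays did not overlap the PBS/OVA arrays.

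MiR-99a-5p, which differs from miR-100-5p by 1 base, was lower by less. Its log2 signals were 10.50 and 10.45 in PBS/PBS, 10.48, 10.48, 10.54 and 10.36 in PBS/OVA, from 10.21 up to 10.39 with a median of 10.27 in OVA/OVA, and 10.63, 10.53, 10.45 and 10.29 in OVA/OVA DEX. The highest OVA/OVA array lay above the lowest PBS/OVA and OVA/OVA DEX arrays, so these groups overlapped. MiR-99a-5p differed from PBS/OVA by −0.19 (SE 0.067, limma adjusted p = 0.0489), and this missed the threshold when any of 12 of the 16 arrays was left out, with adjusted p up to 0.138.

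MiR-99b-5p, which also has the seed ACCCGUA, followed the groups in another way. Its log2 signals were 8.39 and 8.36 in PBS/PBS, 8.43, 8.64, 8.58 and 8.49 in PBS/OVA, between 8.19 and 8.48 (median 8.26) in OVA/OVA, and 8.62, 8.37, 8.19 and 8.43 in OVA/OVA DEX. PBS/OVA held the higher values, and the OVA/OVA DEX arrays covered nearly the whole range of the other groups. Against PBS/OVA miR-99b-5p fell by 0.25 (SE 0.085, limma adjusted p = 0.0374), with adjusted p up to 0.102 when an array was left out.

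In the miR-10 seed group, miR-10b-5p had log2 signals of 7.63 and 7.57 in PBS/PBS, 7.62, 7.49, 7.62 and 7.53 in PBS/OVA, 7.09 to 7.45 with a median of 7.30 in OVA/OVA, and 7.67, 7.83, 7.69 and 7.91 in OVA/OVA DEX. All OVA/OVA arrays lay below all others, and all OVA/OVA DEX arrays lay above all others. Against PBS/OVA miR-10b-5p fell by 0.27 (SE 0.076, limma adjusted p = 0.018). With normexp background correction the difference was 0.05, while the median over all miRNAs then was 0.30. The normexp offset of 50 per spot is above the median signal of a miR-10b-5p probe (43.21 before scaling). That sign therefore cannot decide the direction.

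MiR-10a-5p showed the same order of groups with more spread. Its log2 signals were 11.27 and 11.32 in PBS/PBS, 11.25, 10.93, 11.33 and 11.31 in PBS/OVA, 10.74 to 11.18 with a median of 10.92 in OVA/OVA, and 11.51, 11.51, 11.39 and 11.49 in OVA/OVA DEX. Replicate 2 of PBS/OVA lay among the OVA/OVA arrays. The difference from PBS/OVA was −0.24 (SE 0.098, limma adjusted p = 0.0713), which did not pass, and without that replicate it was −0.34 with an adjusted p of 0.0115. Of the 6 members tested, miR-10b-5p and miR-100-5p had OVA/OVA arrays wholly below the PBS/OVA arrays, and 9.02% of all miRNAs tested did.

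**Figure D1:**
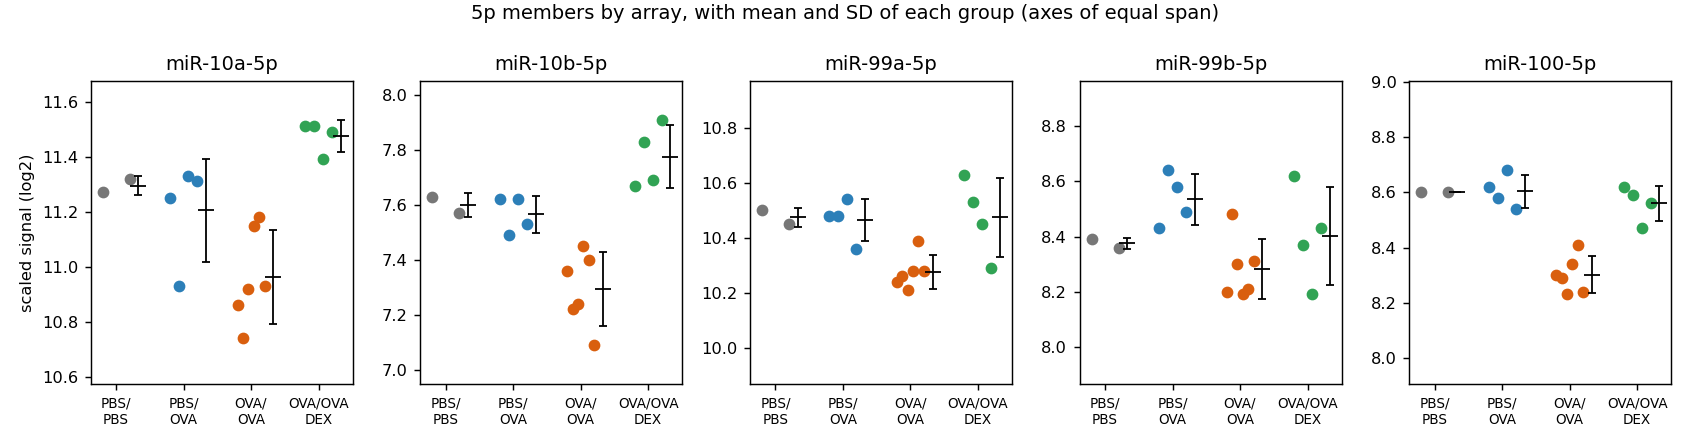
Scaled log2 signal of each 5p member (vertical axes, each of equal span but at its own level) in the 4 groups, with a point for each array in replicate order and the group mean and SD beside it. The OVA/OVA points of miR-100-5p (8.23 to 8.41) and miR-10b-5p (7.09 to 7.45) lie below all other points, and the OVA/OVA DEX points of miR-10a-5p (11.39 to 11.51) and miR-10b-5p lie above them.

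The second comparison asked which miRNAs differed between allergic lungs with and without DEX, and 4 of the 5 members of the 5p arm passed, all lower in OVA/OVA, against 32.3% of all miRNAs tested in that direction and 53.4% in either. As scaled here no 5p member differed by 2-fold, where 12.8% of all miRNAs tested passed with that change. Without scaling 0 of the 5p members passed (miR-10a-5p had a limma adjusted p of 0.145), and with normexp miR-10a-5p alone did (0.00316). For these settings too the share of all miRNAs that passed is not given. MiR-10a-5p was lower by 0.51 (SE 0.098, limma adjusted p = 0.000992), 1.43-fold. MiR-10b-5p was lower by 0.48 (SE 0.076, adjusted p = 0.000294), 1.40-fold. MiR-100-5p was lower by 0.26 (SE 0.053, adjusted p = 0.00153) and miR-99a-5p by 0.20 (SE 0.067, adjusted p = 0.0234). MiR-99b-5p differed by −0.12 (95% interval −0.30 to 0.06, adjusted p = 0.253), so neither no difference nor one as large as that of miR-100-5p lay outside its interval. The differences of the miR-10 seed group were the larger ones as scaled here, and the difference between seed groups was not tested. With quantile normalization miR-99a-5p (−0.30) exceeded miR-10a-5p (−0.28), and with normexp it exceeded miR-10b-5p (−0.17 and −0.13). Normexp added an offset of 50 per spot. A miR-10b-5p probe had a median of 43.21 before scaling, and the miR-99a-5p probes had 1193 and 288.7. Such an offset weighs more on dim probes, so the normexp order cannot rank these members.

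The median difference from OVA/OVA DEX was −0.26 over the 5p members and −0.09 over all miRNAs tested. In 3 of these 5 the OVA/OVA arrays lay wholly below the OVA/OVA DEX arrays, where 16.5% of all miRNAs tested did so. The overlapping ones were miR-99a-5p and miR-99b-5p. Both probes of miR-10a-5p were lower, by 0.49 and 0.52, and so were both of miR-10b-5p, by 0.60 and 0.45. Without OVA/OVA DEX replicate 1 the difference of miR-99a-5p was −0.15 with an adjusted p of 0.0834, and without replicate 2 it was −0.18 with 0.0695.

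Within a slide, the differences from OVA/OVA DEX were −0.70 and −0.41 for miR-10a-5p (slide 1 and slide 2), −0.50 and −0.46 for miR-10b-5p, and −0.29 and −0.23 for miR-100-5p. The first 2 passed on each slide alone (adjusted p from 0.0345 to 0.0493), and miR-100-5p passed on neither (0.105 and 0.0947). With array brightness as a covariate in the fit, an alternative chosen after the data were seen, the same 4 members of the 5p arm passed against OVA/OVA DEX. Against PBS/OVA miR-100-5p was then the only member to pass, with a difference of −0.27 and an adjusted p of 0.00522.

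The third comparison set allergic lungs against PBS/PBS lungs, with 2 arrays in the control group. MiR-100-5p was lower by 0.30 (SE 0.067, limma adjusted p = 0.00722) and miR-10b-5p by 0.31 (SE 0.096, adjusted p = 0.0343), which made 2 of 6 members against 12.4% of all miRNAs tested in that direction and 25.6% in either. The other 4 members tested had differences of −0.33 for miR-10a-5p, −0.20 for miR-99a-5p, −0.09 for miR-99b-5p and −1.91 for miR-10a-3p, with adjusted p from 0.0597 to 0.525. No member passed with a 2-fold change (9.77% of all). In 4 of the 5 members of the 5p arm the OVA/OVA arrays lay wholly below the PBS/PBS arrays, which 25.6% of all miRNAs tested also did. The median difference was −0.30 over the 5p members and −0.02 over all miRNAs. Without either PBS/PBS array 0 members passed.

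**Figure D2:**
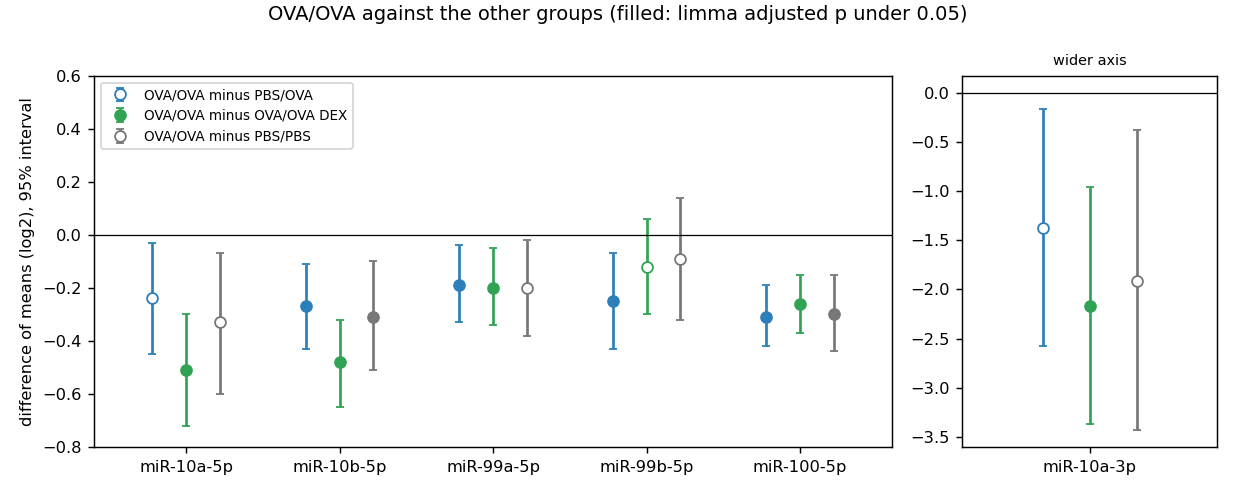
Difference of mean log2 signal between OVA/OVA and each other group (vertical axes, with a wider axis for miR-10a-3p) for the 6 members tested, with limma's 95% intervals and filled points where the adjusted p was under 0.05. All 18 points lie below 0, those of miR-10a-3p rest on an OVA/OVA group with 2 of 6 arrays detected, and the points against OVA/OVA DEX are lowest for miR-10a-5p (−0.51) and miR-10b-5p (−0.48) among the 5p members.

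The remaining comparisons left out the OVA/OVA group. Between OVA/OVA DEX and PBS/PBS, 0 of 6 members passed by limma (0% of all miRNAs tested), and 0 had an unadjusted p under 0.05 (7.14% of all). MiR-10a-5p and miR-10b-5p, both with a difference of 0.18, had all OVA/OVA DEX arrays above both PBS/PBS arrays, which 18.8% of all had. Between PBS/OVA and PBS/PBS 0 members passed by limma (0.376% of all), and 0 had an unadjusted p under 0.05 (4.51% of all). The exact Mann-Whitney test could call no miRNA in these comparisons, since its smallest p was 0.0667 in the former and 0.133 in the latter. Between OVA/OVA DEX and PBS/OVA 0 members passed by limma (2.26% of all), and 2 had an unadjusted p under 0.05 (22.2% of all). These were miR-10a-5p, with a difference of 0.27 (SE 0.107), and miR-10b-5p, with 0.21 (SE 0.083), both at a limma adjusted p of 0.157. Both had all OVA/OVA DEX arrays above all PBS/OVA arrays, which 7.89% of all miRNAs tested had. The 3 members with the other seed differed by −0.05 to 0.01 for miR-100-5p and miR-99a-5p and by −0.13 for miR-99b-5p. These comparisons share groups with each other and with the first 3.

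The levels of the members can also be set against each other within an array, where the scaling between arrays cancels. Relative to the mean of PBS/OVA, miR-10a-5p minus miR-10b-5p averaged 0.05 in PBS/PBS, 0.03 in OVA/OVA and 0.06 in OVA/OVA DEX, and its arrays ran from −0.20 to 0.20. The arrays of the 4 groups overlapped throughout. MiR-99a-5p minus miR-100-5p averaged 0.12 in OVA/OVA, with arrays from 0.08 to 0.18 that lay above the PBS/OVA arrays (−0.05 to 0.04) and overlapped the OVA/OVA DEX arrays (−0.13 to 0.15). MiR-10a-5p minus miR-99b-5p averaged 0.40 in OVA/OVA DEX, with arrays from 0.21 to 0.53 against −0.38 to 0.16 in PBS/OVA, 0.21 to 0.29 in PBS/PBS and −0.41 to 0.30 in OVA/OVA. No test was run on these differences between members.

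**Figure D3:**
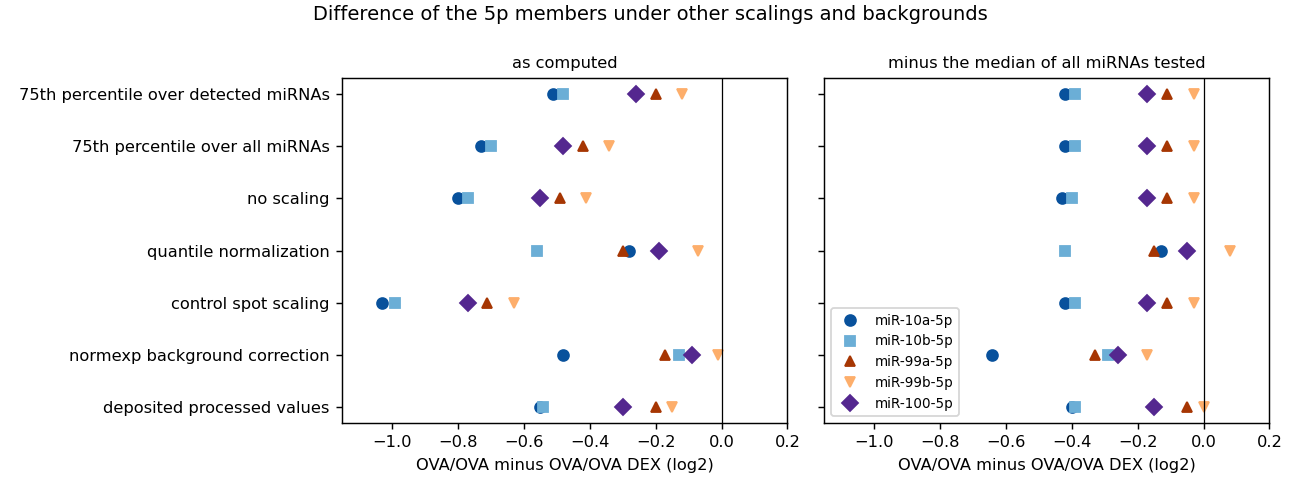
Difference of mean log2 signal between OVA/OVA and OVA/OVA DEX (horizontal axes) for each 5p member under the scaling used here and 6 other treatments of the signals (rows), as computed on the left and after subtraction of the median over all miRNAs tested on the right. Every left-hand point lies below 0. On the right miR-10b-5p lies at −0.29 or lower, and miR-99b-5p lies at 0.08 with quantile normalization. Scalings that differ only by a factor per array must coincide on the right, apart from the floor.

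The size of these differences depended on the scaling and the background treatment. The median difference from OVA/OVA DEX over all miRNAs was −0.09 as scaled here, −0.31 with the percentile taken over all miRNAs, −0.38 without scaling, −0.60 with control spots and 0.16 with normexp. The first 4 differ only by a factor per array, which shifts the differences of all miRNAs alike. Relative to that median a difference therefore cannot change among them, apart from the floor. It was −0.42 to −0.43 for miR-10a-5p and −0.39 to −0.40 for miR-10b-5p under these, while normexp gave −0.64 and −0.29. Quantile normalization, which makes the distributions of all arrays equal, gave miR-10a-5p −0.13 and miR-10b-5p −0.42 relative to its median of −0.15. MiR-10b-5p thus kept its place under quantile normalization and miR-10a-5p came closer to the median.

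MiR-10a-3p, the passenger arm of miR-10a, was near the limit of detection, so its differences are given as a description. Its log2 signal was 4.76 and 4.91 in PBS/PBS, 4.83, 3.09, 4.58 and 4.72 in PBS/OVA, 1.13 to 4.54 with a median of 2.94 in OVA/OVA, and 5.40, 4.99, 4.71 and 5.29 in OVA/OVA DEX. It was detected on 2 of 6 OVA/OVA arrays and on all arrays of the other groups. It therefore entered the fit through the groups in which it was detected, and 4 of the 6 OVA/OVA values are not measured levels. The fit gave −2.17 against OVA/OVA DEX (SE 0.56, limma adjusted p = 0.00703) and −1.38 against PBS/OVA (SE 0.56, adjusted p = 0.0731), and neither is a fold change between measured levels. The OVA/OVA arrays on which it was detected had 3.87 and 4.54, both below the OVA/OVA DEX arrays and within the range of PBS/OVA.

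Brightness moved with this result. The OVA/OVA arrays with miR-10a-3p detected, replicates 1 and 4, had 75th percentiles of 2300 and 2375, and the other 4 had 814 to 1346. The signal stood on 2 of its 4 probes, with medians of 15.5 over the arrays before scaling. Another probe had a negative background-subtracted signal on every array, which lowers the sum, and the last was near 0. The 2 probes with signal differed by −1.14 and −0.95 between OVA/OVA and OVA/OVA DEX, and Feature Extraction's own total signal for the miRNA differed by −1.53 (adjusted p = 0.00576). With normexp background correction the differences were 0.13 against OVA/OVA DEX and 0.37 against PBS/OVA, while the medians over all miRNAs then were 0.16 and 0.30. With array brightness as a covariate they were −1.71 (adjusted p = 0.0034) and −0.57 (0.356). The OVA/OVA arrays without detection were the 4 dim ones, and their values are not measured levels. The covariate fit therefore cannot separate brightness from the level of the arm. The part of brightness and background in the result was not tested.

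The 5p minus 3p difference of miR-10a was compared between groups because array scaling cancels in it. It was 6.51 and 6.40 in PBS/PBS, 6.42, 7.84, 6.75 and 6.59 in PBS/OVA, between 6.61 and 9.79 in OVA/OVA, and 6.11, 6.52, 6.68 and 6.20 in OVA/OVA DEX. The highest values came from the 4 OVA/OVA arrays without a detected 3p arm (7.75 to 9.79) and from PBS/OVA replicate 2. The OVA/OVA arrays with a detected 3p arm had 6.99 and 6.61, and the latter lay within the range of OVA/OVA DEX. The fit gave a difference of 1.65 between OVA/OVA and OVA/OVA DEX (SE 0.509, limma adjusted p = 0.0232 over 46 arm pairs), where 39.1% of all pairs passed and 21.7% in that direction. It rests on the 4 arrays without a detected 3p arm and is no measured change between the arms. Against PBS/OVA the fit gave 1.13 (adjusted p = 0.155, 8.7% of pairs passed) and against PBS/PBS 1.57 (adjusted p = 0.133, 6.52% passed). With normexp the sign turned in all 3, to −0.61, −0.62 and −1.12. Normexp added an offset of 50 per spot, above the highest miR-10a-3p probe signal on any array (29.9 before scaling). The offset is scaled up on dim arrays, so the normexp sign cannot decide the direction.

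MiR-99b-3p was detected on 1 array in each group. Its log2 signal was 1.31 and 1.97 in PBS/PBS, 2.16, 2.71, 1.83 and 2.68 in PBS/OVA, from 0.77 (the floor) up to 2.57 in OVA/OVA, and 0.77, 1.80, 4.93 and 0.77 in OVA/OVA DEX. The value of 4.93, on OVA/OVA DEX replicate 3, stood apart from the rest. MiR-10b-3p was at the floor of 0.77 on all 16 arrays. Neither arm was tested, and no arm comparison was made for miR-10b or miR-99b.

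**Figure D4:**
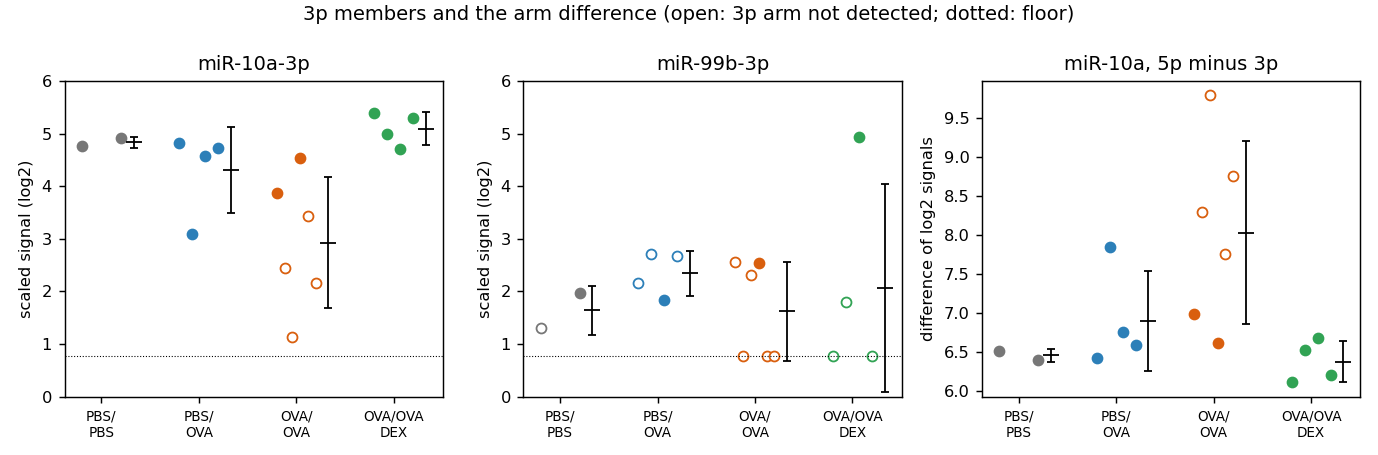
Scaled log2 signal of miR-10a-3p and miR-99b-3p and the within-array difference of miR-10a-5p minus miR-10a-3p (vertical axes) by group, with a point for each array, open where the 3p arm was not detected, and the group mean and SD beside the points. The dotted line is the floor of 0.77. The arm difference is 6.11 to 6.68 in OVA/OVA DEX, and the 4 highest OVA/OVA points (7.75 to 9.79) are open.

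The patterns of the members over the 16 arrays differed between and within seed groups. Pearson's r was 0.88 between miR-10a-5p and miR-10b-5p and 0.849 between miR-99a-5p and miR-100-5p, but 0.16 between miR-10a-5p and miR-99b-5p and 0.244 between miR-10b-5p and miR-99b-5p. After the group means were subtracted the first 2 were 0.529 and 0.623, and the last 2 were −0.357 and −0.38. The arrays share groups, scaling and slides, so these values are descriptions.

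Among the 201 other miRNAs detected on all arrays, the pattern closest to miR-10a-5p was that of miR-26a-5p (r = 0.992), followed by miR-26b-5p (0.986) and miR-676-3p (0.974). MiR-26a-5p is a broadly expressed miRNA with a different seed family. Its difference was −0.50 from OVA/OVA DEX and −0.26 from PBS/OVA, beside −0.51 and −0.24 for miR-10a-5p. The closest to miR-10b-5p were miR-30b-5p (0.895) and miR-30c-5p (0.894), and the closest to miR-100-5p were miR-218-5p (0.949), miR-497-5p (0.917) and miR-199b-5p (0.912). For miR-99a-5p they were miR-199b-5p (0.933), miR-125b-5p (0.918) and miR-365-3p (0.909). MiR-99b-5p had a looser match, with miR-181b-5p (0.825) ahead of miR-125a-5p (0.721), which is encoded beside it, and miR-199a-5p (0.717).

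**Figure D5:**
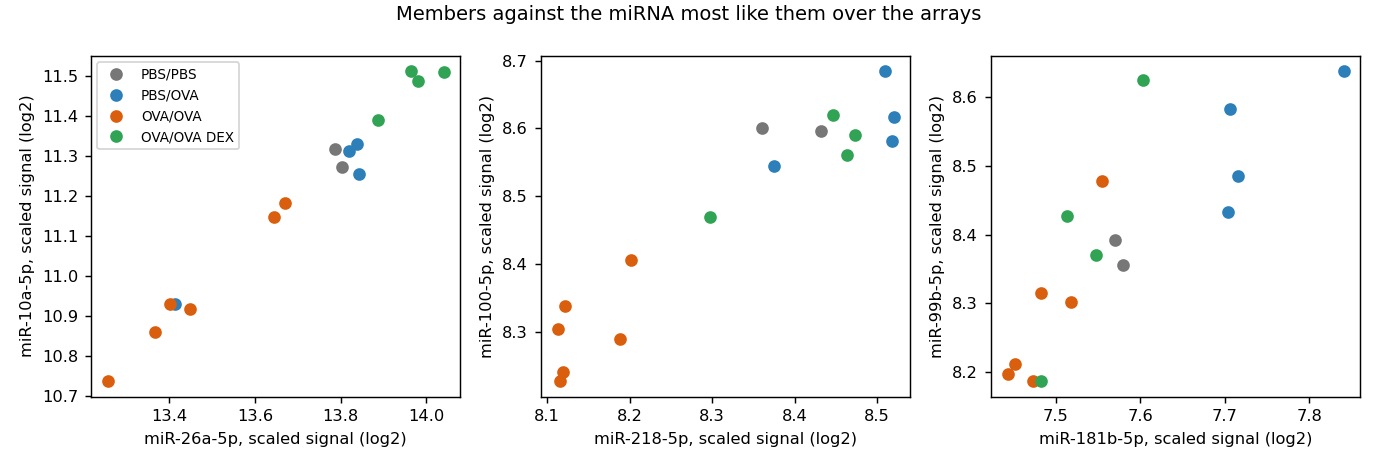
Scaled log2 signal of miR-10a-5p, miR-100-5p and miR-99b-5p (vertical axes) against that of the miRNA with the highest Pearson r to each (horizontal axes) over the 16 arrays, coloured by group. The points of miR-10a-5p follow those of miR-26a-5p closely (r = 0.992), and those of miR-99b-5p scatter more (r = 0.825).

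Of the miRNAs encoded beside the members, some were lower in the same comparisons. Of 11 listed let-7 and miR-125 arms of the miR-99 and miR-100 clusters, 9 were on the array and 6 were tested. In OVA/OVA 2 of 6 were lower than in PBS/OVA (16.9% of all miRNAs tested). Against OVA/OVA DEX 2 were lower and 1 higher (32.3% of all lower, 53.4% in either direction), and against PBS/PBS 1 was lower (12.4%). The shares that were lower were near those of all miRNAs in the last 2 comparisons. MiR-125b-5p, which is encoded near miR-99a and near miR-100 from separate genes that give the same mature miRNA, was lower in OVA/OVA by 0.28 against PBS/OVA (limma adjusted p = 0.0106), by 0.27 against OVA/OVA DEX (0.00777) and by 0.33 against PBS/PBS (0.0178). MiR-125a-5p, from the miR-99b cluster, was lower by 0.41 against PBS/OVA (0.0176) and by 0.28 against OVA/OVA DEX (0.0475). MiR-125a-3p was higher than in OVA/OVA DEX by 1.89 (0.0266), and it was detected on 14 arrays.

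The 3 let-7 5p arms of the clusters did not pass in any comparison. Let-7e-5p, whose gene is 94 bases from Mir99b, differed by −0.32 from PBS/OVA (SE 0.173) and −0.38 from OVA/OVA DEX (limma adjusted p = 0.0761). Let-7c-5p, beside miR-99a, differed by −0.27 and −0.28, and let-7a-5p, beside miR-100, by −0.19 and −0.20. These let-7 miRNAs differ from each other by few bases and can come from other let-7 genes as well. Of the other Hox cluster miRNAs, miR-196 and miR-615 arms, 5 of 7 listed were on the array and 0 were detected on any array.

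Markers of some cell types also differed between the groups. Counts of markers that were lower stand beside 16.9% of all miRNAs lower against PBS/OVA, 32.3% against OVA/OVA DEX and 12.4% against PBS/PBS. In either direction 31.6%, 53.4% and 25.6% of all passed. What these exceed the shares lower by is the share of all miRNAs that was higher, beside which counts of higher markers stand. The 5 haematopoietic markers, miR-142, miR-150, miR-223 and miR-342 arms, were higher in OVA/OVA than in PBS/OVA in 5 of 5 cases, than in OVA/OVA DEX in 4 of 5 and than in PBS/PBS in 3 of 5, and their summed log2 signal was 15.01 to 15.56 in OVA/OVA against 13.99 to 14.73 in the other groups. The 2 arms of the endothelial miR-126 were both lower in OVA/OVA than in PBS/OVA and OVA/OVA DEX, with median differences of −0.39 and −0.59, and a summed signal of 14.90 to 15.32 against 15.22 to 15.57. Of 3 mesenchymal markers, miR-199a and miR-214 arms, 1 was lower than in PBS/OVA and 2 were lower than in OVA/OVA DEX (medians −0.24 and −0.28). Of the smooth muscle markers miR-143 and miR-145, 0 of 2 passed against PBS/OVA and both were lower than in OVA/OVA DEX (median −0.38). Against PBS/PBS 0 of the endothelial, mesenchymal and smooth muscle markers passed.

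Red cell markers miR-451a and miR-144 passed in 0 of 2 cases against PBS/OVA and were both lower than in OVA/OVA DEX (median −1.05). MiR-486-5p was also listed but not found under that name, and the array row miR-3107-5p, which matched the deposited miR-486, was not counted. Striated muscle markers were lower in 2 of 3 cases in both comparisons (medians −0.84 and −0.88) and against PBS/PBS. Epithelial markers had medians of −0.04 and −0.09, with 0 of 5 lower and 1 higher against PBS/OVA, and 1 lower and 1 higher against OVA/OVA DEX. Against PBS/PBS 1 was higher. Ciliated cell markers had −0.07 and −0.32, with 0 of 4 passing against PBS/OVA, 2 lower and 1 higher against OVA/OVA DEX, and 2 lower against PBS/PBS. The part of cell makeup in the members' differences was not tested.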

How the data were processed

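Total RNA of whole lung was hybridised to 16 Agilent 1-colour mouse miRNA arrays (13000 spots and 1857 probes per array, 0 saturated spots). The authors deposited scanner output of Feature Extraction 10.7.3.1, in which each spot has an intensity with background subtracted and no normalization between arrays, and a table of processed log2 values whose scaling is not stated in the sources used here. The deposited log2 table served as an alternative only.

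Spots without control or outlier flags were averaged per probe, and probes summed per miRNA. The signals of an array were scaled by its 75th percentile, taken over the 206 miRNAs that every array detected, to the median percentile (1704). Values under 1.71 (log2 0.77), the median over arrays of the lowest detected signal, were set to it, and log2 was taken. Group means over all 16 arrays were fitted with limma 3.58.1 (R 4.3.3), with eBayes, and p-values were adjusted by Benjamini-Hochberg over 266 miRNAs or 46 arm pairs. The fit was tested on simulated data. The study names the Mann-Whitney test for its statistics in general and Genespring for the arrays. The exact Mann-Whitney test and other scalings, backgrounds, filters, floors, blocks and left-out arrays were alternatives. Normexp background correction was run on the median spot signals with an offset of 50, followed by the same scaling. The number of arrays limits the precision.

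Named beside the members were their cluster partners, other Hox cluster miRNAs, the 3 miRNAs most like each 5p member, and marker lists. Members and lists were chosen with earlier results of these data known. The labels do not say that replicates are separate animals, so p-values measure the spread between these arrays, which may be technical. Sequences and places are from RefSeq (GRCm38.p6). The arrays' own annotation was not used for places.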

Additional observations from a re-analysis of the deposited data

Results flagged for a closer look

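Among 21 sets of 4 to 6 arrays of a member within a group, 1 held an array that stood apart by Dixon's criterion. MiR-10a-3p on PBS/OVA replicate 2 had a log2 signal of 3.09, and the next array of the group had 4.58, a gap of 0.855 of the group's range and past the critical value for 4 arrays. Chance flags about 1 in 20 such sets. The same array had the lowest miR-10a-5p signal of its group (10.93), and the part of that array in the result was measured by leaving it out. The difference of miR-10a-3p between OVA/OVA and PBS/OVA was then −1.78 (limma adjusted p = 0.0248) instead of −1.38 (0.0731), in both cases with the arm undetected on 4 of 6 OVA/OVA arrays.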

How the results depend on the processing

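Counts here are of members, and the share of all miRNAs that passed under an alternative is not given unless stated. Whether a changed count is particular to the members was therefore not tested. Against PBS/OVA, where 4 members passed, 0 passed unscaled and with control spots or the percentile of all miRNAs as the scale. With normexp and on either slide alone 0 passed as well. There, 1 passed with quantile normalization and with the brightness covariate, 2 passed without the detection filter, in the deposited values and by the exact Mann-Whitney test, and 0 with the 2-fold criterion. Against OVA/OVA DEX 5 passed, of which 1 was miR-10a-3p, undetected on 4 of 6 OVA/OVA arrays. There, 3 passed with the percentile over all miRNAs, on slide 1 and in the deposited values, 2 on slide 2, and 1 with normexp (miR-10a-5p). Without scaling and with the 2-fold criterion the 1 that passed was miR-10a-3p, whose difference is not between measured levels. Against PBS/PBS, where 2 passed, 6 passed unscaled and with control spots or the percentile of all miRNAs as the scale. The medians over all miRNAs tested were then −1.115, −0.654 and −0.555, and the share of all that passed is not given. The count of 6 can therefore not be read as a result about the members. MiR-99b-5p, at −1.19 unscaled, lay −0.07 from that median. In the same comparison 1 passed when only the groups compared were fitted. There, 0 passed on slide 1, with the brightness covariate and with the 2-fold criterion. By the exact Mann-Whitney test 0 of all 266 miRNAs passed against the 2 PBS/PBS arrays. Its count of 0 members therefore says nothing about the members. The arm difference of miR-10a, which passed against OVA/OVA DEX, did not pass (0) with normexp, on either slide, when only the groups compared were fitted and by Mann-Whitney, and against PBS/PBS it passed (1) with normexp, in the opposite direction. Left-out arrays gave 1 to 4, 4 to 5 and 0 to 4 members in the 3 comparisons, and 0 to 1 arm differences against OVA/OVA DEX.

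Signs turned with normexp for miR-10a-3p (0.37 against PBS/OVA, 0.13 against OVA/OVA DEX and 0.78 against PBS/PBS), for miR-10b-5p (0.05 against PBS/OVA and 0.17 against PBS/PBS), for miR-99b-5p against PBS/PBS (0.13, and 0.01 with slide as a block) and for the arm difference (−0.62, −0.61 and −1.12, and −0.07 against PBS/PBS with the brightness covariate). The normexp offset of 50 is above every miR-10a-3p probe signal and above the median of a miR-10b-5p probe (43.21 before scaling). It is scaled up on dim arrays, so the normexp signs of these members cannot decide the direction. Against PBS/PBS the normexp median over all miRNAs was 0.54. The cause of the turned signs was not tested. With the replicate number as a block 2 members passed against PBS/OVA. The numbers did not pair the arrays, since 3 of 18 same-numbered pairs had deviations with r over 0.1 (range −0.78 to 0.406). The counts of 0 in the 3 comparisons without OVA/OVA held under the alternatives run, among which the exact Mann-Whitney test could not reach the threshold in the 2 with PBS/PBS.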

Other observations

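In the deposited processed values, the row named miR-10a* held values on 12 arrays that lay within 0.106 (log2) of the 5p signal of miR-10a, after each array's shift, and 7.02 or more away from the 3p signal. The row named miR-99b* did the same on 4 arrays, within 0.066 of the 5p signal. The arrays with values were the same in number as those on which the scanner output detected the 3p arm (12 and 4). Of 54 starred rows with any value above the column minimum, 22 equalled the unstarred row of the same name within 0.15 wherever they had a value. The 5p rows of all 5 members matched the scanner output. The deposited values of these 3p arms were therefore not used here.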
